A study of Mus musculus with 2 samples.

Results

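The 10 genes described here encode the main acetylcholine receptors of the cerebral cortex, the enzyme that destroys acetylcholine and a protein that binds nicotinic receptors. They are the muscarinic receptors Chrm1, Chrm2, Chrm3 and Chrm4, the nicotinic subunits Chrna4, Chrna5, Chrna7 and Chrnb2, the acetylcholinesterase Ache and the Ly6 family gene Lynx1. They were taken by symbol from the transcript annotation, and all 10 were found among 55536 annotated genes. The libraries hold ribosome-reduced total RNA of left cerebral cortex from 2 female mice, both adult at 8 to 10 months, and these form the only group. Both animals were B6CASTF1/J, that is, first-generation hybrids of C57BL/6J with CAST/EiJ, and the labels record no treatment. Replicate 1 was animal 1 and replicate 2 was animal 5, but both carry the same donor entry, so their separate origin rests on those numbers.

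Acetylcholine reaches the cortex mainly through axons of basal forebrain neurons, whose cell bodies lie outside it. Muscarinic receptors are G protein-coupled: M1, M3 and M5 act through Gq and phospholipase C, and M2 and M4 through Gi/o. Nicotinic receptors are cation channels of 5 subunits, in the brain chiefly alpha4 with beta2, which may take in alpha5 as an accessory subunit, and alpha7 alone. The RNA came from whole tissue, so fewer cells of a type and less RNA per cell cannot be told apart.

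The gene tables held 28327434 estimated counts for replicate 1 and 30234441 for replicate 2. The cortical neuron markers Slc17a7, Neurod6, Tbr1 and Emx1 were all detected, with summed levels of 541 and 588 TPM. TPM is the length-scaled share of a transcript among all transcripts, and a gene is called detected at 1 TPM in both libraries. All 9 striatal projection neuron markers were detected too, with summed levels of 901 and 964 TPM, and Ppp1r1b alone reached 279 and 310 TPM. The libraries stood apart in activity-dependent genes: Arc, Fos and Egr1 summed to 244 TPM in replicate 1 and 52.0 TPM in replicate 2, and their part in the differences between the animals was not tested. Each sample also has a second transcript table, a separate estimate made from the same library.

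All 10 genes were detected. Mean levels ran from 123 ± 10.4 TPM (SD, n = 2) for Lynx1 down to 2.49 ± 0.438 TPM for Chrna5. The full order was Lynx1, Chrm1, Ache, Chrm4, Chrm3, Chrna4, Chrnb2, Chrna7, Chrm2 and Chrna5. The values of neighbours in that order did not overlap between the animals, except for Ache and Chrm4. In the second table Chrm4 (22.7 and 24.4 TPM) overlapped Chrm3 (20.7 and 23.8 TPM) instead, and Ache lay above Chrm4 at 27.9 and 34.7 TPM. Lynx1 lay above 94.3% of the 12971 detected protein-coding genes and Chrm1 above 86.5%. Chrm2 lay above 25.6% of them and Chrna5 above 8.00%, so the group spanned most of the range of expressed genes.

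**Figure D1:**
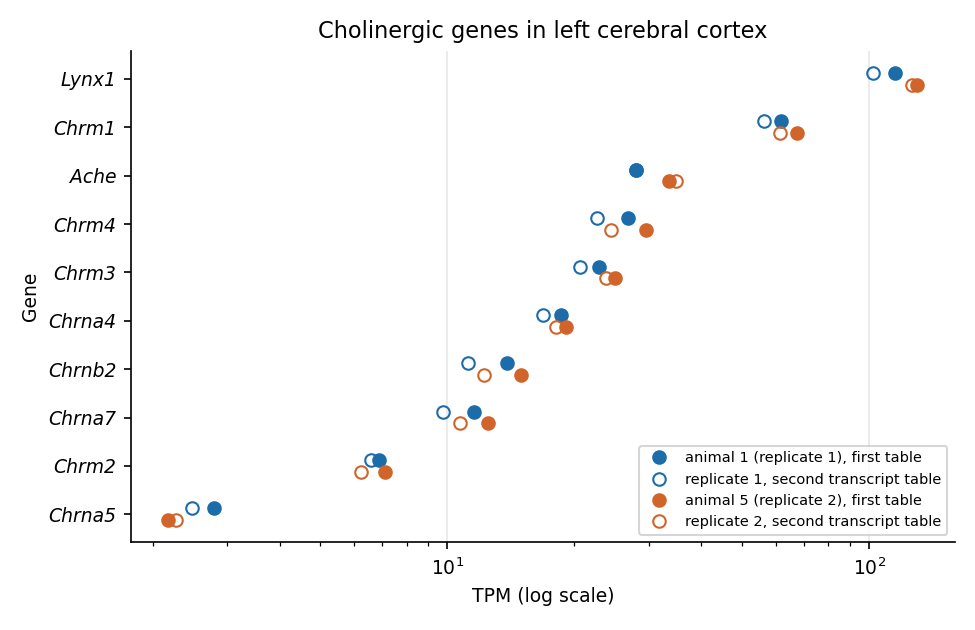
Level of each gene in TPM on a log axis, for replicate 1 (blue) and replicate 2 (orange), in the first table (filled) and the second table (open). The 10 genes span from 2.18 TPM for Chrna5 to 129.93 TPM for Lynx1, and the spacing between genes is mostly wider than that between the animals.

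Chrm1, on chromosome 19 (mm10, 8663789 to 8683587, plus strand), encodes the M1 receptor of cortical and hippocampal principal neurons. It had 5116 counts and 61.9 TPM in replicate 1 and 5729 counts and 67.3 TPM in replicate 2. This made it the leading muscarinic receptor in each animal, with 51.6% and 52.0% of the summed TPM of the 5 muscarinic genes. Of 4 hippocampal markers 3 were detected (Prox1, Calb2 and Wfs1), and Lct was not, at 0.35 and 0.51 TPM. Summed levels over the 4 were 84.1 and 85.5 TPM, of which Wfs1 alone gave 64.7 and 69.6 TPM. The part of these markers, or of the striatal projection neuron markers given above, in the Chrm1 level was not tested.

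Chrm4, on chromosome 2 (91927249 to 91928688, plus strand), encodes the Gi/o-coupled M4 receptor and stood at 26.8 and 29.6 TPM. Its share of the muscarinic sum was 22.3% and 22.9%. M4 is also a receptor of striatal projection neurons, whose markers were present in both libraries as given above, and their part in the Chrm4 level was not tested. The deposited model of Chrm4 is 1 exon of 1440 nt that holds the coding sequence and stop codon only, and the RefSeq start lies 5060 bases upstream of it. Its level therefore rests on 651 and 748 counts over coding sequence.

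Chrm3, on chromosome 13 (9875486 to 10360847, minus strand), encodes the Gq-coupled M3 receptor and stood at 22.9 and 25.0 TPM, or 19.1% and 19.3% of the sum. Chrm2, on chromosome 6 (36388084 to 36528414, plus strand), encodes the Gi/o-coupled M2 receptor, which also acts as an autoreceptor on cholinergic terminals. Chrm2 was the lowest of the 4, at 6.90 and 7.11 TPM, with 5.76% and 5.49% of the sum. Chrm5, the remaining family member, had 39 and 13 counts, or 1.43 and 0.460 TPM, and was not called detected. The Gq-coupled receptors Chrm1, Chrm3 and Chrm5 together made 71.9% and 71.6% of muscarinic TPM, so this division differed by less than 1 percentage point between the animals.

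Chrm1-201 took 69.7% and 71.7% of the gene's TPM and Chrm1-202 took 27.6% and 25.6%. Chrm1-202 has an extra 92-base exon and a 3′ end longer by 2020 bases, with the same 1380 coding bases, so both models encode M1. Chrm1-203, with 222 coding bases, took 2.76% and 2.70% in the first table but 13.0% and 11.5% in the second. Chrm3-202 led with 82.6% and 87.9%, and the single-exon Chrm3-201, which lies wholly inside it, took 14.5% and 9.76%. In the second table these were 72.07% and 70.95% for Chrm3-202 and 23.2% and 23.8% for Chrm3-201. Since Chrm3-201 has 0 bases of its own, its reads cannot be told from those of Chrm3-202. Chrm2-202 took 100% in both animals in the first table, where the noncoding Chrm2-201 was listed at 0. The second table gave Chrm2-201 9.34% in replicate 1, on 6.68 counts, and 0% in replicate 2.

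Chrna4, on chromosome 2 (181018380 to 181043546, minus strand), encodes the alpha4 subunit, which with beta2 forms the main heteromeric receptor and its agonist site. It had 1351 and 1481 counts, or 18.5 and 19.1 TPM. Chrnb2, on chromosome 3 (89746195 to 89764632, minus strand), encodes its partner beta2 and had 1580 and 1768 counts, or 13.8 and 14.9 TPM. Per unit length there was less Chrnb2 than Chrna4 RNA in each animal, with ratios of 0.747 and 0.782.

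The Chrnb2 value has a neighbour to consider. Of the 6399 exonic bases of Chrnb2-201, 1014 lie inside exons of Adar, an RNA-editing enzyme gene on the opposite strand, and 0 of these are coding. Adar had 4987 and 5018 counts. The library kit keeps strand, but no label or file header says whether the counting used it. If it did not, the reads of Chrnb2 and Adar in that stretch cannot be told apart. In the second table the Chrnb2 to Chrna4 ratio was lower, at 0.666 and 0.674. The ratio also depends on the other Chrna4 models, some of them short and on few counts. In the first table Chrnb2-201 alone had 13.81 and 14.82 TPM and Chrna4-201 alone 16.48 and 17.41 TPM. In the second table Chrna4-201 held 79.55% and 77.12% of its gene's TPM, and Chrnb2-201 99.8% and 99.4%. The part of Adar or of these models in the lower ratio was not tested.

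Chrna7, on chromosome 7 (63098692 to 63212569, minus strand), encodes the alpha7 subunit of the homomeric, calcium-permeable receptor. It had 420 and 471 counts, or 11.6 and 12.5 TPM, below both Chrna4 and Chrnb2 in each animal. Its full-length model Chrna7-201 took 97.2% and 96.3% of the TPM. Chrna4, Chrnb2 and Chrna7 together made 89.1% of the summed TPM of all 16 nicotinic subunit genes in each animal. The summed muscarinic TPM was 2.43 and 2.48 times the summed nicotinic TPM.

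Chrna4 transcripts part at the 3′ side of the last shared coding exon. Chrna4-201, the full-length model with 1887 coding bases, took 88.9% and 91.1% of TPM, and Chrna4-205, an annotated model of 374 coding bases, took 11.1% and 6.60%. The sequences are shown because they are what separates these models: 30 shared coding bases in lower case and then, in capitals, the coding bases of each model after the shared point. The intervals include the last shared base (chr2:181024757-181024765 for Chrna4-201 and chr2:181018526-181024765, across an intron, for Chrna4-205, mm10, minus strand, from the GENCODE M21 transcripts). After the shared point Chrna4-201 has 8 coding bases and Chrna4-205 has 128, of which 30 are printed.
Chrna4-201: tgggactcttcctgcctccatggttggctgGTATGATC
Chrna4-205: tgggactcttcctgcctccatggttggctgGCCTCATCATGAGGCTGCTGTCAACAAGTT
The Chrna4-205 share rested on 15.6 and 9.96 counts, or 1.16% and 0.673% of the gene's counts. The short model turns few counts into a large TPM share, while Chrna4-201 held 98.85% and 99.0% of first-table counts. The second table gave Chrna4-201 79.5% and 77.1% of TPM, and there the coding model Chrna4-202, listed at 0 in the first table, took 6.29% and 9.81%.

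Chrna5, on chromosome 9 (54980880 to 55007779, plus strand), encodes the accessory alpha5 subunit, known in the cortex from deep layer pyramidal neurons. It was the lowest of the 10 genes, with 99 counts and 2.80 TPM in replicate 1 and 81 counts and 2.18 TPM in replicate 2. All 6 deep layer markers (Foxp2, Tle4, Syt6, Ccn2, Cplx3 and Nxph4) were detected, with summed levels of 79.7 and 75.3 TPM, and their part in the Chrna5 value was not tested. Chrna5 is also the one gene of the group whose leading transcript, by mean TPM share, was not the same in both tables. By share of first-table counts Chrna5-204 led there too, so the difference depends on the measure.

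Chrna5 has 4 annotated transcripts, and the reads were given to only 2 of them in both tables. Chrna5-202, with 6 exons and 1401 coding bases, had 46.7 and 35.5 counts in the first table. Chrna5-204, with 3 exons, had 52.3 and 45.6 counts. Chrna5-201 and the noncoding Chrna5-203 had 0 counts in both animals. The deposited upper credibility bounds were 0.836 and 0.539 TPM for Chrna5-201 and 0.486 and 0.474 TPM for Chrna5-203. Low levels of either are therefore not excluded. By TPM share Chrna5-202 led the first table with 56.2% and 52.7%. In the second table Chrna5-202 had 52.4% in replicate 1 and 42.1% in replicate 2, so the lead passed to Chrna5-204 there in replicate 2 and in the mean.

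The coding difference between these models is an in-frame loss: Chrna5-204 lacks 312 coding bases, or 104 codons, because it joins exon 1 to a site 5 bases inside exon 5. The junctions are shown because a read across them would tell the models apart. Each line has 30 bases before the junction in lower case and 30 bases after it in capitals, from the GENCODE M21 transcripts on the plus strand of mm10.
Chrna5-202 exon 1 to exon 2: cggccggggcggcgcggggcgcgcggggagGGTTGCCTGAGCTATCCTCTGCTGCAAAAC
Chrna5-202 exon 4 to exon 5: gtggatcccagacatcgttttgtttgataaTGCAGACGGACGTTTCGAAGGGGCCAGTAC
Chrna5-204 exon 1 to exon 2: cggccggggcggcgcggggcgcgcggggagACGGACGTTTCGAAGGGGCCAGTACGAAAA
The exon 1 side is the same in both models, and the Chrna5-204 side after the junction starts within the exon 5 sequence of Chrna5-202. The deposited tables hold no junction counts. Of the 928 bases that Chrna5-204 shares with no other Chrna5 model, 861 lie at a longer 3′ end and 67 at the 5′ end. Its counts can therefore come from the longer 3′ end as well as from reads across its own junction, and the tables do not separate these.

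**Figure D2:**
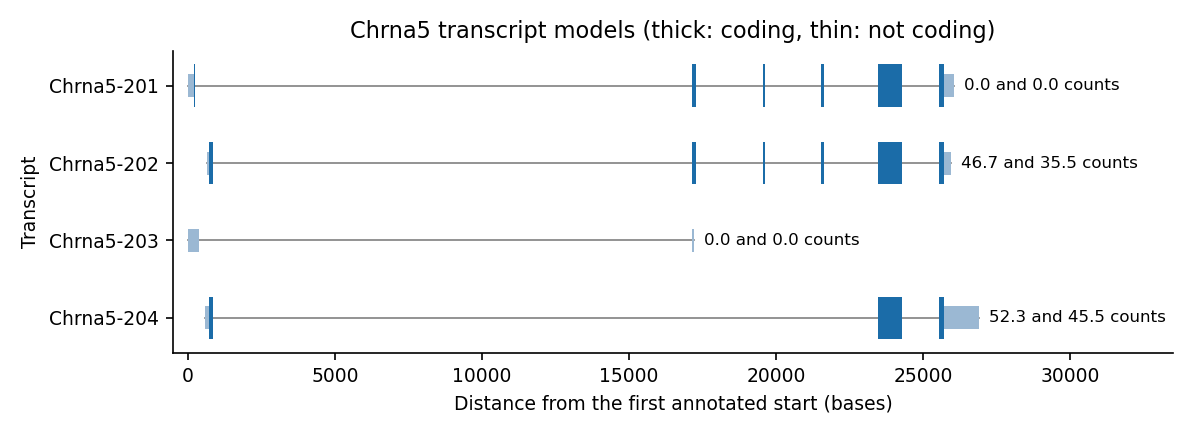
The 4 annotated Chrna5 transcripts by distance in bases from the first annotated start, with coding parts thick, noncoding parts thin and introns as lines; the numbers are first-table counts in replicate 1 and replicate 2. Chrna5-204 lacks 3 exons of Chrna5-202 and has the longest 3′ end, and the models that start furthest upstream have 0 counts.

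The start sites of these Chrna5 models also differ. Chrna5-204 starts 586 bases and Chrna5-202 starts 653 bases downstream of Chrna5-201, whose first exon has 236 bases of its own. RefSeq (GRCm38.p6) has a promoter window for each region, most of it before the start, and both are shown because only the downstream models received counts. GC boxes, the letters GGGCGG on either strand, are in capitals. The first window is chr9:54980630-54980929 and surrounds the Chrna5-201 start, and the second is chr9:54981238-54981537, both on the plus strand.
Chrna5 upstream window: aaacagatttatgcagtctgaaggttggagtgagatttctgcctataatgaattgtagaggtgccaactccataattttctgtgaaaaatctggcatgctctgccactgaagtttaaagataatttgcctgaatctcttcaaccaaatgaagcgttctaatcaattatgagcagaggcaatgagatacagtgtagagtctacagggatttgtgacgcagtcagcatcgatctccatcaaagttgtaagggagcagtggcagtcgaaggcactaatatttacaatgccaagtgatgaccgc
Chrna5 downstream window: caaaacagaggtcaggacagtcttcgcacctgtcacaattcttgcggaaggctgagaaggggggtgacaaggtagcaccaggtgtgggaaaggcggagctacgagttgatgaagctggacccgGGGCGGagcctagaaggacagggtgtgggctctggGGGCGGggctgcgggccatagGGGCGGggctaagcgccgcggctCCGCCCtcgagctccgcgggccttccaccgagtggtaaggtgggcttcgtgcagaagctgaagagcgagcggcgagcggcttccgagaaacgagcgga
The upstream window is 41.3% GC and holds 0 GC boxes, and the downstream window is 65.0% GC and holds 4. Of 32851 RefSeq windows of the same length, 35.7% hold a GC box, and the median GC content is 52.7%. The letters TATAAA, searched on both strands and unable to overlap a GC box, were in 13.6% of windows and in neither Chrna5 window. Windows were found for 8 of the 10 genes, and the other 7 genes with one had 0 to 4 GC boxes and no TATAAA. These matches describe the letters only.

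Ache, on chromosome 5 (137287519 to 137294466, plus strand), encodes acetylcholinesterase, which hydrolyses acetylcholine at synapses. It had 1134 counts and 27.9 TPM in replicate 1 and 1416 counts and 33.6 TPM in replicate 2. Bche, the second cholinesterase, had 1.16 and 1.92 TPM, so Ache exceeded it 24.1-fold and 17.5-fold. Prima1, which anchors acetylcholinesterase to neuronal membranes, was detected at 5.18 and 6.92 TPM. Past a 1.2-fold difference in scaled counts, Bche was higher in replicate 2 by 0.70 on the log2 scale (counting SE 0.166) and Prima1 by 0.30 (counting SE 0.214), as were 14.3% of all genes in that direction. In the second table Bche stood at 0.933 and 1.65 TPM, below the detection level in replicate 1. There the Bche difference was 0.67, and that of Prima1 was 0.23, under 1.2-fold. Prima1 had only 79 and 107 first-table counts. Colq, the collagen tail that anchors the enzyme at the neuromuscular junction, was below 1 TPM in both libraries, at 0.80 and 0.47 TPM.

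The 2 full-length Ache models encode the same 1842 coding bases. Ache-201 and Ache-202 share 2173 exonic bases, and only 13 and 3 bases belong to one of them alone, with the acceptor of exon 2 differing by 3 bases. The first table gave Ache-201 49.0% and 43.2% of TPM and Ache-202 31.3% and 39.3%. The second table gave Ache-202 0.0531 counts in replicate 1 and 293.5 in replicate 2, against 824.5 and 767.6 for Ache-201. The division between the pair was thus not stable between tables or animals, while the coding sequence was the same whichever received the reads.

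Ache-208 is annotated as a retained intron of 3687 nt, with 2029 bases inside introns of Ache-201. It took 281 and 322 counts, or 24.8% and 22.7% of the gene's counts, and 15.5% and 14.2% of its TPM. In the second table it took 14.4% and 13.1% of TPM, so this share was close in both tables. Ache-209, a coding model of 1578 coding bases with a different end, was listed at 0 in both animals and both tables. Ache overlaps Gm42456 on the opposite strand, which had only 9 and 4 counts.

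Lynx1, on chromosome 15 (74747852 to 74753046, minus strand), encodes a membrane-anchored protein with a three-finger toxin fold that binds nicotinic receptors and lowers their response to acetylcholine. It had 7638 counts and 115 TPM in replicate 1 and 9369 counts and 130 TPM in replicate 2. This was 2.33 and 2.49 times the summed TPM of all nicotinic subunit genes. Lynx1-201, with 348 coding bases, took 92.4% and 97.1% of TPM. Lynx1-202, with 102 coding bases, took 6.18% in replicate 1 and 0.720% in replicate 2. Its credibility intervals were wide and overlapped, from 1.05 to 13.1 TPM and from 0.000167 to 6.90 TPM, and in the second table its share was 4.52% and 7.87%, higher in replicate 2 instead.

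**Figure D3:**
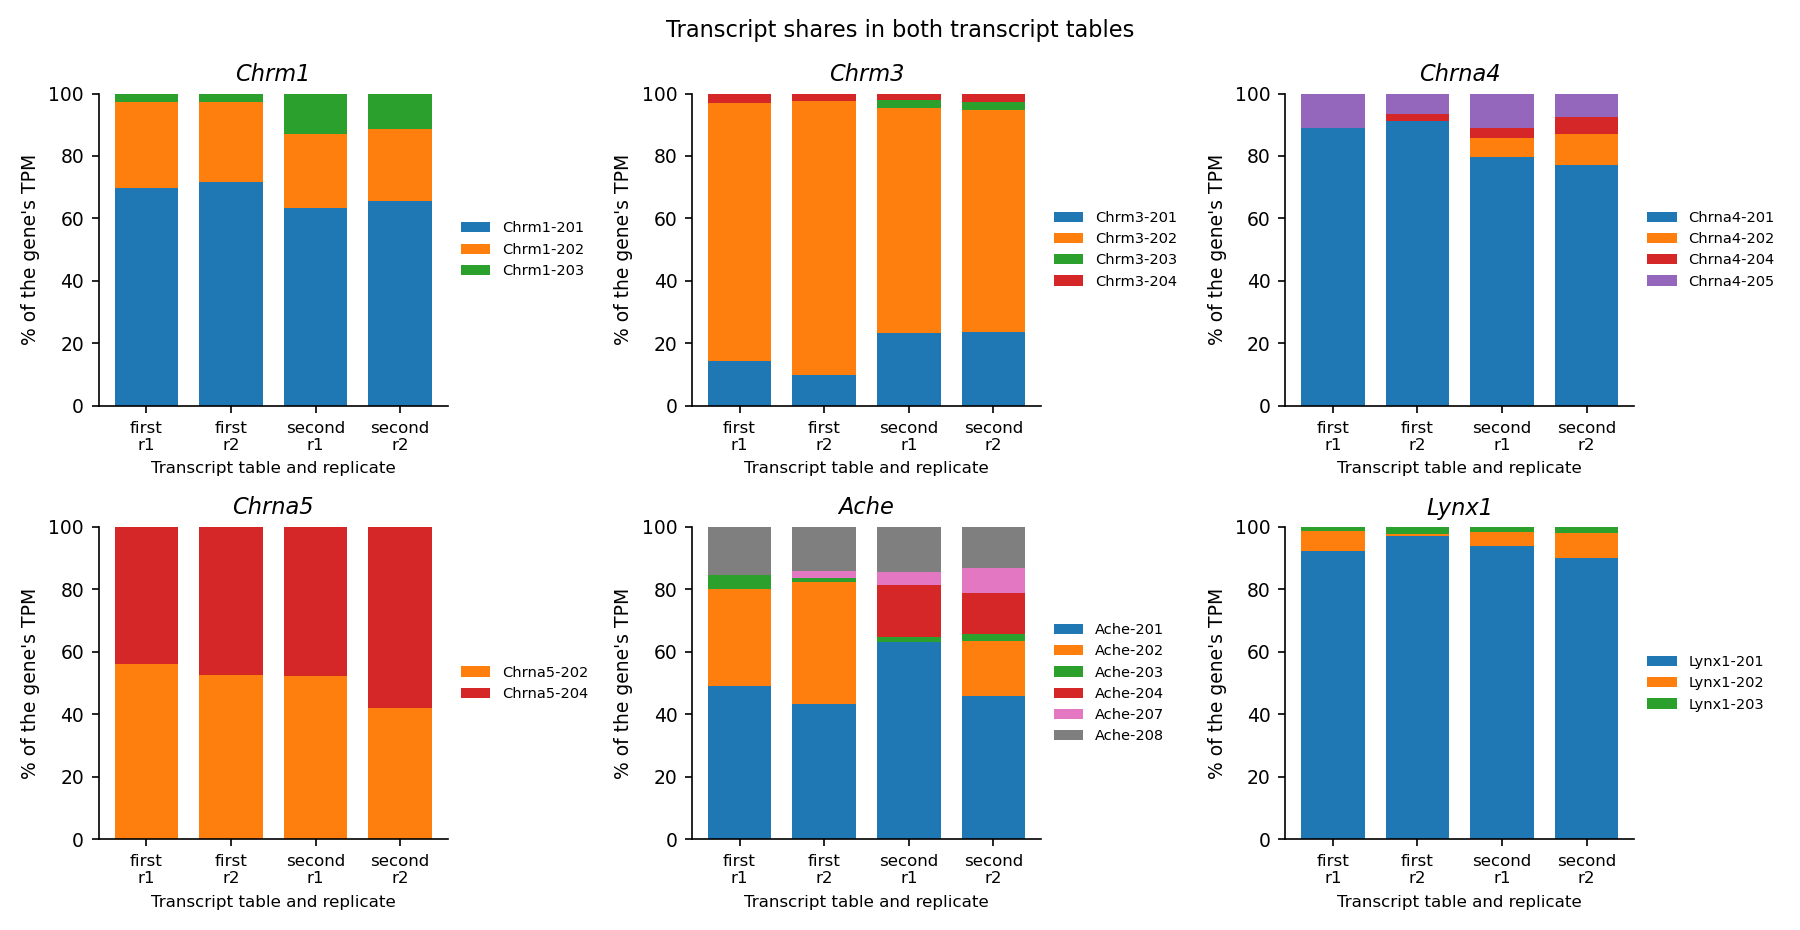
Percent of each gene's TPM in its transcripts for 6 of the genes, in the first and second transcript tables and in replicate 1 (r1) and replicate 2 (r2); transcripts that never reach 1% are left out. Lynx1-201 stays between 90.2% and 97.1% throughout, whereas Ache-202 moves between tables, at 31.3% and 39.3% in the first and near 0% and 17.6% in the second.

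Over the 10 genes, 36 transcripts are annotated: 27 protein coding, 6 processed noncoding transcripts and 3 retained introns. Of these, 11 had 0 counts in both animals in the first table, 7 of them coding. The leading transcript, by mean TPM share, was the same in both tables for 9 of the 10 genes. It held at least 94% of first-table TPM in mean for Chrm2, Chrm4, Chrna7, Chrnb2 and Lynx1, and least for Ache, at 46.1 ± 4.11% (SD, n = 2).

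The animals were compared by the log2 difference in CPM, which is counts scaled by library size, replicate 2 minus replicate 1, with TMM scaling. No test is possible with 1 library per animal, so a gene is called past a 1.2-fold difference and each value is set beside its counting SE. Reads carried no molecular identifiers, so these errors cover counting only. Of the 10 genes 1 passed 1.2-fold, against 27.4% of the 14122 genes that averaged 50 counts or more. That gene was Chrna5, lower in replicate 2 by a log2 difference of -0.42 with a counting SE of 0.216, where 13.1% of all genes were lower and 14.3% higher past this fold. The Chrna5 credibility intervals overlapped, from 2.32 to 3.58 TPM and from 1.79 to 2.91 TPM, and its second-table difference was -0.19, so this call rests on under 100 counts per library.

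The others differed less. Ache was higher in replicate 2 by 0.18 (counting SE 0.0575), Lynx1 by 0.16 (counting SE 0.0222) and Chrm3 by 0.10 (counting SE 0.0494), all on the log2 scale. Lynx1 differed by 7.09 times its counting SE and Ache by 3.19 times, though both differences stayed under 1.2-fold. The other 6 genes (Chrm1, Chrm2, Chrm4, Chrna4, Chrna7 and Chrnb2) lay between -0.04 and 0.06, within about 1 counting SE of 0. In all, 7 of the 10 were higher in replicate 2, against 45.6% of all genes, and the median difference was 0.03 against -0.02 over all genes. The deposited credibility intervals did not overlap for Chrm1 and Lynx1, both higher in replicate 2, as they did not for 13.9% of all genes in that direction. The intervals are in TPM, which is not TMM-scaled. Chrm1 had 61.9 and 67.3 TPM, while its TMM-scaled difference was only 0.03. These intervals belong to the authors' posterior mean and can miss the TPM itself, as for Chrm1 in replicate 1, with bounds of 57.8 and 61.6 TPM.

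Scaling by the spike-ins moved every gene upward. Replicate 2's effective library size was 0.908 times that of replicate 1 by spike-in totals against 1.10 by TMM, which shifts the median over all genes by 0.276 on the log2 scale. On that scale Ache stood at 0.46 and Lynx1 at 0.43, Chrna5 at -0.15, and 8 of the 10 genes passed 1.2-fold, all higher in replicate 2, against 48.1% of all genes higher and 3.03% lower past this fold. The shift is nearly the same for every gene, so the order within the group is the one that TMM scaling gave.

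**Figure D4:**
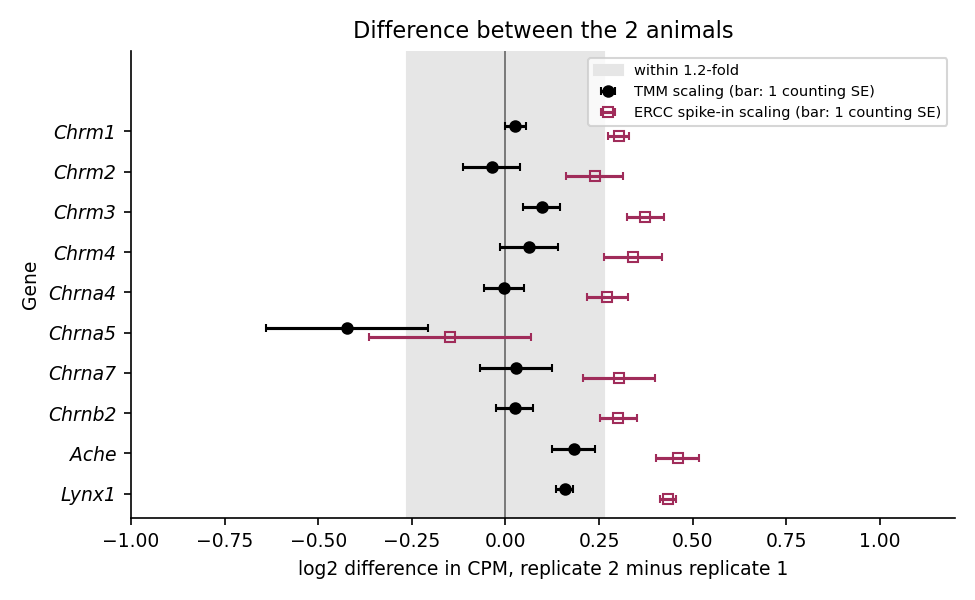
Difference between the animals for each gene as log2 CPM, replicate 2 minus replicate 1, with TMM scaling (filled circles) and spike-in scaling (open squares); bars are 1 counting SE and the grey band is within 1.2-fold. With TMM scaling Chrna5 alone lies outside the band, at -0.42, and spike-in scaling moves all 10 genes up together.

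The genes that make and load acetylcholine were low. Chat, the enzyme that synthesises it, had 135 and 96 counts, or 2.70 and 2.13 TPM. Slc18a3, the vesicular transporter, had 1.55 and 1.26 TPM and Slc5a7, the high-affinity choline transporter of cholinergic terminals, 3.35 and 2.18 TPM. All 3 were past 1.2-fold lower in replicate 2, at -0.62, -0.37 and -0.70 on the log2 scale with counting SEs of 0.193, 0.264 and 0.129, where 13.1% of all genes were lower past this fold. With spike-in scaling they stood at -0.35, -0.10 and -0.42, so Slc18a3 was no longer past 1.2-fold. With that scaling 3.03% of all genes were lower past this fold. In the second table Slc5a7 was lower in replicate 2 by counts, at -0.75, but not by TPM, at 3.01 and 3.26. The broad choline transporter Slc44a1, which is not specific to cholinergic cells, was far higher at 35.0 and 42.0 TPM.

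All 6 cholinergic neuron markers were detected, with none at 0 and summed levels of 14.3 and 11.2 TPM. Besides the 3 genes above, Lhx8 (2.60 and 1.19 TPM) and Isl1 (2.78 and 1.55 TPM) were past 1.2-fold lower in replicate 2, and Zic4 (1.36 and 2.84 TPM) was higher. Their log2 differences were -0.83, -0.58 and 1.24, with counting SEs of 0.286, 0.234 and 0.245. Thus 5 of the 6 markers were lower past 1.2-fold, against 13.1% of all genes, and 1 was higher, against 14.3%. With spike-in scaling 4 of the 6 were lower, against 3.03% of all genes, and 1 was higher, against 48.1%. Lhx8, Isl1 and Zic4 are transcription factors of ventral forebrain cholinergic lineages, and their part in the receptor and Ache levels was not tested.

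No other nicotinic subunit gene was detected: 0 of 12 reached 1 TPM in both libraries. The highest was Chrnb3, a subunit known from the midbrain and habenula, with 54 and 104 counts, or 0.730 and 1.23 TPM. It was past 1.2-fold higher in replicate 2, as were 14.3% of all genes, by 0.80 on the log2 scale with a counting SE of 0.242. Of 4 thalamus and habenula markers 3 were detected (Tcf7l2, Prkcd and Tac2), and Gpr151 was not, at 0.26 and 0.76 TPM. Summed levels over the 4 were 15.7 and 22.3 TPM, and the part of these markers in the Chrnb3 value was not tested. Chrna3 stood at 0.290 and 0.510 TPM and Chrna6 at 0.220 and 0.450 TPM, each on at most 35 counts. Chrna9, Chrnd and Chrng had 0 counts in both libraries in the first table, where 3 counts would be 0.266, 0.0812 and 0.144 TPM in replicate 1. The second table also put Chrna9 at 0, but gave Chrnd 0.108 and 0.159 TPM and Chrng 0.0164 and 0 TPM, so a level of Chrnd above the first table's limit is not excluded. The muscle subunit genes Chrna1, Chrnb1 and Chrne stayed at or below 0.540 TPM in the first table and 0.603 TPM in the second, while 3 of 4 striated muscle markers (Myh6, Acta1 and Musk) were detected, with summed levels over the 4 of 16.0 and 10.8 TPM.

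Lynx1 was one of several high Ly6 family genes, and 6 of the other 9 on the list were detected. Ly6h, which limits alpha7 receptors at the cell surface, had 152 TPM in both animals, above Lynx1 in each. Ly6e reached 125 and 121 TPM and Lypd1, also called Lynx2, 47.8 and 39.1 TPM. Lypd6 had 11.2 and 15.7 TPM, Lypd6b 4.84 and 4.46 TPM and Ly6g6e 1.98 and 2.06 TPM. Slurp1, Slurp2 and Psca had 0 counts in both libraries. Lypd1 was the only one past 1.2-fold, lower in replicate 2 by a log2 difference of -0.27, where 13.1% of all genes were lower past this fold. Spike-in scaling brought Lypd1 to 0.00 and put Lypd6 past 1.2-fold higher, at 0.45, as were 48.1% of all genes with that scaling.

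Both receptor assembly genes on the list were detected. Ric3, a chaperone of alpha7 and other nicotinic receptors, had 31.0 and 33.7 TPM, and Tmem35a, the alpha7 chaperone also called NACHO, 29.4 and 27.9 TPM. Each was above the level of Chrna7 itself in both animals.

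All 13 genes described here downstream of muscarinic receptors were detected. With TMM scaling 1 of them passed 1.2-fold, against 27.4% of all genes, and with spike-in scaling 8 passed it, all higher in replicate 2, against 48.1% of all genes. The Gq genes Gnaq (72.1 and 70.9 TPM) and Gna11 (53.2 and 48.4 TPM) and the phospholipase gene Plcb1 (79.7 and 91.9 TPM) serve M1 and M3. Plcb4 had 38.8 and 40.4 TPM. The Gi/o genes were led by Gnao1, at 312 and 333 TPM, ahead of Gnai2 (118 and 115 TPM) and Gnai1 (80.4 and 85.3 TPM). Each of these G protein genes serves many other receptors too.

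Among channels that muscarinic receptors control, the M-current subunit Kcnq3 had 61.0 and 59.0 TPM and Kcnq5 had 33.1 and 41.1 TPM. The Gi/o-opened potassium channel Kcnj3 had 44.7 and 58.2 TPM and was the one gene past 1.2-fold, at 0.30 on the log2 scale with TMM scaling. Its partners Kcnj6 and Kcnj9 had 38.4 and 34.2 TPM and 50.3 and 56.7 TPM. Rgs4, which shortens Gq and Gi/o signals, had 175 and 189 TPM, and all 13 genes exceeded every receptor gene of the group except Chrm1 in both animals.

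**Figure D5:**
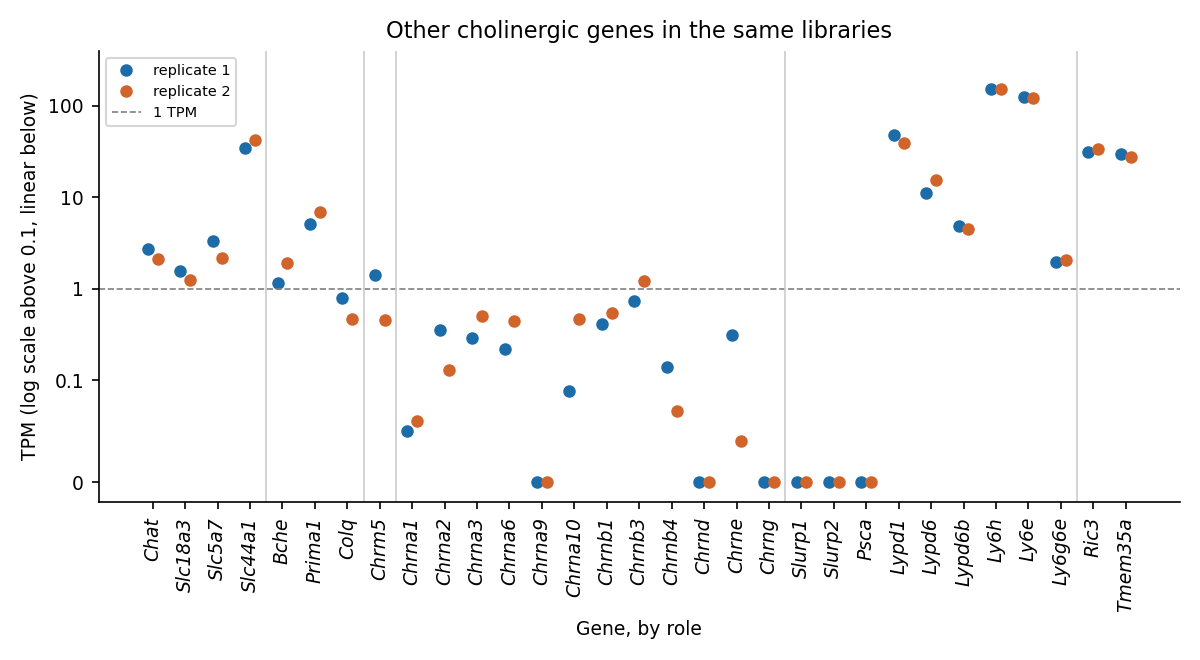
TPM of the other cholinergic genes in replicate 1 (blue) and replicate 2 (orange), grouped from left to right as synthesis and transport, Bche and anchors, Chrm5, other nicotinic subunits, Ly6 family and receptor assembly; the axis is logarithmic above 0.1 and linear below it. All 12 other nicotinic subunits lie below the dashed line at 1 TPM in at least one animal, and Ly6h and Ly6e are the highest.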

How the data were processed

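The deposited readme names genome mm10 and GENCODE M21. Aligner and quantification software: not given in the sources used here. Per the labels, each library came from 300 ng of ribosome-reduced RNA with a directional kit and ERCC spike-ins. Expected counts in the first tables and estimated counts in the second are the authors' unnormalized estimates. The authors scaled TPM to the same total in each library. Per the file headers, a further column holds each transcript's percent of its gene. Credibility bounds are deposited scores whose level is not stated. Hybrid reads were assigned to the reference genome, and alleles were not analysed here.

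Totals were 28327434 and 30234441 counts, or 29914365 and 32121292 in the second table, with 75029 and 68108 spike-in counts. Expected counts were rounded and scaled by TMM (edgeR 4.0.16, R 4.3.3) with a prior count of 1. Differences cover genes that averaged 50 counts or more, and the median counting SE was 0.0823. No test was run. The step was tested on simulated data. Alternatives were DESeq2 1.42.0 size factors, totals, spike-ins, other filters, thresholds and prior counts, the second table, the posterior mean and leaving out each replicate. A floor is 3 counts. The text names all 10 genes and the genes of the pathway lists that reach 1 TPM in both libraries; genes below 1 TPM, and marker genes, were named after their values were seen. Members and lists were chosen with earlier results of these data known. No protein sequence was used here. Some genes on the marker and pathway lists are not reported here and were left out of the lists' counts and sums.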

Additional observations from a re-analysis of the deposited data

How the results depend on the processing

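The count of genes past 1.2-fold was 1, against 27.4% of all genes. With spike-in totals it became 8, against 48.1% of all genes higher and 3.03% lower past this fold. It became 0 with the second table, 0 at 1.5-fold and 0 at 2-fold. It stayed at 1 with DESeq2 size factors, total counts, a prior count of 5, a minimum of 10 counts and no filter. The share of all genes was not computed for these other settings. Their counts are therefore not a result about these 10 genes. The Chrm1 share of muscarinic TPM was 51.8%, against 52.6% in the second table and 51.5% by posterior mean TPM, with the replicates at 51.6% and 52.0%. The Chrnb2 to Chrna4 ratio was 0.764, against 0.670 in the second table and 0.733 by posterior mean TPM. The Ache to Bche ratio was 20.8, against 25.5 in the second table and 16.8 by posterior mean TPM. In these 3 the cause was not tested. All 10 genes stayed detected in the second table and at 0.5 TPM, and 9 at 5 TPM, without Chrna5. The number higher in replicate 2 was 7, against 45.6% of all genes, and was 8 with DESeq2 size factors, 9 with totals and 9 with spike-ins. These scalings shift all genes upward, with effective size ratios of 1.09, 1.07 and 0.908 against 1.10 by TMM. The share of all genes higher was not computed for them, so the rise is not a result about these 10 genes. Levels in the second table were 81.3% to 102% of the first and moved by more than the SD between the animals for 7 of 10 genes. The leading transcript's share moved by more than that SD for 7 of 10 genes. The leading transcript by TPM share was the same in both tables for 9 genes, also without replicate 1, and for 10 without replicate 2. It was also the same for 10 with first-table share of counts set against second-table share of TPM, which are unlike measures. No paired analysis was possible because there is only 1 group. Depth limits Chrna5 most, with under 100 counts per library.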
